A study of Mus musculus with 8 samples.

Results

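Expression of 10 genes of the oligodendrocyte lineage was measured by bulk RNA-seq of whole brains of adult mice: Pdgfra, Cspg4, Gpr17, Olig1, Olig2, Sox10, Nkx2-2, Bcas1, Enpp6 and Myrf. They were taken by symbol from a table of 24343 genes, all 10 were present, and all 10 passed the minimum mean of 1 FPKM (sequenced fragments per length of transcript and per size of library) that 13001 genes passed. The whole brains came from 3 C57BL/6NCrl mice 56 to 62 days old, sequenced as 3 libraries of mouse 1, 3 of mouse 2 and 2 of mouse 3. The labels name no allele or agent, the mice formed a single condition with no control group, and what separates the libraries of a mouse was not stated. Both sexes were used in the study, and the sex of these animals was not labelled. Each SD below is between the 3 mouse means, and each test compares these 3 animals, with the libraries of a mouse as its replicates.

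Oligodendrocyte precursor cells are dividing glial cells that stay spread through the adult brain and carry the receptor PDGFRα and the proteoglycan NG2 on their surface. When a precursor commits to differentiation it switches off these surface genes, passes through a short stage marked by Gpr17, Bcas1 and Enpp6, and then becomes a myelinating oligodendrocyte. Olig1, Olig2, Sox10 and Nkx2-2 encode transcription factors that act in the lineage over several of these stages, and Myrf encodes the factor that turns on myelin genes.

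Olig1 and Olig2 lie side by side on chromosome 16 and share a helix-loop-helix coding stretch, which is shown because similar copies can exchange reads. In the pair below, on the plus strand of GRCm38 (the same assembly as mm10), the stretch covers coding bases 272 to 362 of Olig1 at chr16:91270148-91270238 and coding bases 314 to 404 of Olig2 at chr16:91226713-91226803. The capitals mark the 15 of 91 bases that differ.
Olig1: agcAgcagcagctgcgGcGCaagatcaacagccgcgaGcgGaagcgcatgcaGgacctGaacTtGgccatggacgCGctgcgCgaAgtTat
Olig2: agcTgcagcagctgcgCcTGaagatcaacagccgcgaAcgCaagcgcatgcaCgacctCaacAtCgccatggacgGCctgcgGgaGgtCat
The stretches were 83.5% identical, and the longest run of bases that the transcripts of Olig1 and Olig2 share was 17 bases. The end of Olig2 and the start of Olig1 lie 41091 bases apart.

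A second sequence separates both transcripts of Bcas1, the gene with the largest difference between the mice among the 10. It is exon 7 of 13 in the GENCODE numbering, 138 coding bases on the minus strand of chromosome 2 at chr2:170384189-170384326, which NM_029815 holds and NM_001164369 skips.
Bcas1 exon: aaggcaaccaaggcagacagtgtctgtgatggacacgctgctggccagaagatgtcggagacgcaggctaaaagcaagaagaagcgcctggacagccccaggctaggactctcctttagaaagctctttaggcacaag
The deposited lengths of the transcripts, 3090 and 2952 bases, differ by the same 138 bases.

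Sequencing depth, taken as deposited coverage multiplied by transcript length, was 1.31 to 2.02 gigabases a library (median 1.76). The number of reads was unknown, so no counting interval was computed. Markers of neurons (Snap25, 1056 FPKM), astrocytes (Aldoc, 346 FPKM) and myelin (Mbp, 1925 FPKM) were present in all libraries, whereas of 6 genes of other organs Alb was at 0 in every library and the highest, Gh, had a mean of 0.369 FPKM. Both libraries of mouse 3 stood apart from the other 6. Their FPKM totals were 384885 and 409889 against 295541 to 345572 elsewhere, and their long transcripts had lower values and their short transcripts higher values. Across genes, the rank correlation (Spearman's rho) of a library's deviation from the gene mean with the length of the transcript was −0.363 and −0.574 in mouse 3 and between 0.182 and 0.502 in mice 1 and 2.

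The levels of the 10 genes spanned from 1.76 FPKM for Cspg4 to 95.0 FPKM for Bcas1. Bcas1 and Olig1 stood well above the others, 5 genes lay between 7.36 and 11.4 FPKM (Sox10, Olig2, Myrf, Gpr17 and Pdgfra), and 3 lay below 4 FPKM (Enpp6, Nkx2-2 and Cspg4). In rank among all 24343 genes Bcas1 was at 598 and Olig1 at 1525, followed by Sox10 at 5418 and Cspg4 at 11901. In these whole-brain extracts, fewer cells of a type and less RNA per cell cannot be told apart.

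**Figure D1:**
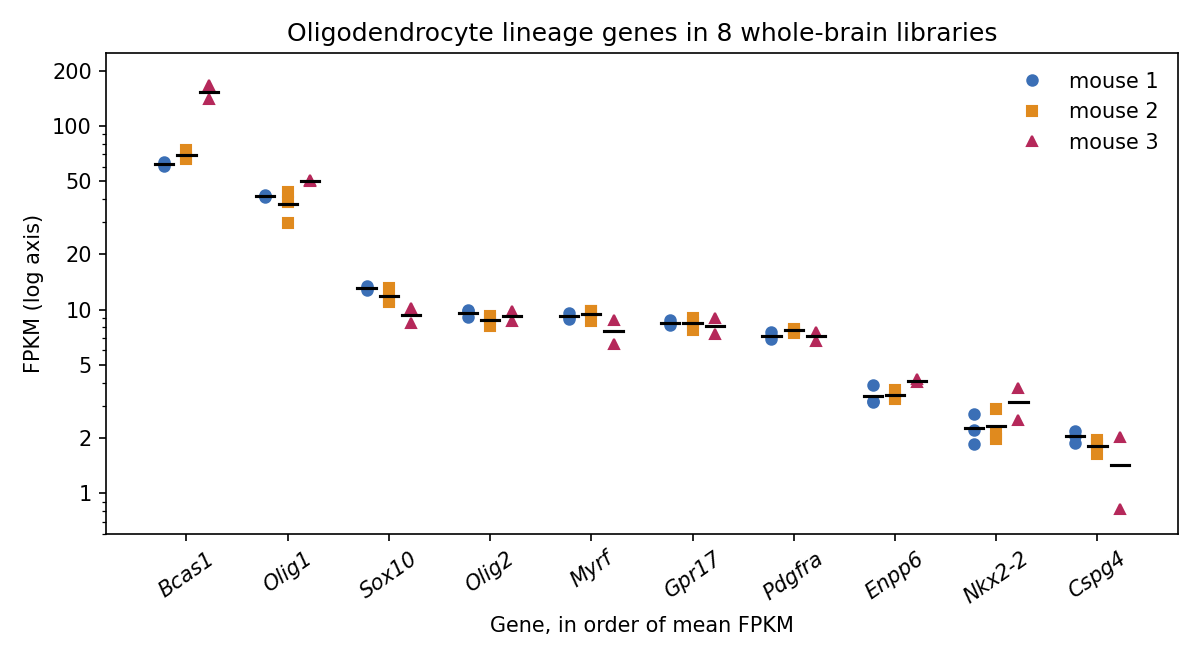
FPKM (log axis) of the 10 genes in each of the 8 libraries, in order of mean FPKM, with 1 point per library coloured by mouse and a bar at each mouse mean. The points of mouse 3 lie above all others for Bcas1 (141 and 167 FPKM), Olig1 and Enpp6 and below all others for Sox10.

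Pdgfra and Cspg4 mark the precursor surface. Pdgfra, on chromosome 5 (75152291 to 75198204, plus strand), encodes the receptor through which PDGF-A keeps precursors dividing. Its level was 7.54, 7.21 and 6.90 FPKM in mouse 1, 7.50, 7.77 and 7.88 FPKM in mouse 2, and 7.59 and 6.72 FPKM in mouse 3. The libraries of the 3 mice overlapped, and the mean was 7.36 ± 0.307 FPKM (SD, n = 3). Cspg4, on chromosome 9 (56865104 to 56899870, plus strand), encodes NG2. Its level was 1.87, 2.05 and 2.19 FPKM in mouse 1, 1.63, 1.94 and 1.86 FPKM in mouse 2, and 2.03 and 0.821 FPKM in mouse 3, a mean of 1.76 ± 0.310 FPKM (SD, n = 3). One library of mouse 3 lay far below the other 7, whereas the other lay among them. Per unit of length Cspg4 was at 0.237 ± 0.0444 (SD, n = 3) of the level of Pdgfra, with single libraries from 0.122 to 0.317. Both genes are also used by other cells, Pdgfra by fibroblasts of the brain's coverings and Cspg4 by pericytes, and markers of these cells were present. The 10 fibroblast markers summed to between 56.7 and 65.3 FPKM over the 8 libraries, with Igf2 highest (23.4 FPKM) and Col3a1 lowest (1.16 FPKM). The 11 pericyte and smooth muscle markers summed to between 74.3 and 90.0 FPKM in mice 1 and 2 and to 105 and 122 FPKM in mouse 3, with Vtn highest (35.7 FPKM) and Anpep lowest (1.29 FPKM). The part of these cells in the levels of Pdgfra and Cspg4 was not tested.

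Of the 4 transcription factor genes, Olig1 had by far the highest level. Olig1, a single-exon gene on chromosome 16 (91269769 to 91271939), was at 40.8, 42.0 and 41.5 FPKM in mouse 1, 29.7, 38.7 and 43.9 FPKM in mouse 2, and 50.4 and 50.6 FPKM in mouse 3. Both libraries of mouse 3 lay above the other 6, and the mean was 43.1 ± 6.69 FPKM (SD, n = 3). Olig2 (chromosome 16, 91225550 to 91228677), which specifies the lineage and stays on in mature oligodendrocytes, ranged over the libraries from 8.19 to 9.99 FPKM, with a mean of 9.22 ± 0.436 FPKM (SD, n = 3). Olig2 was thus at 0.218 ± 0.0302 (SD, n = 3) of the level of its neighbour Olig1, with mouse means of 0.233, 0.239 and 0.183.

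Sox10 (chromosome 15, 79154913 to 79164490, minus strand), a factor that oligodendrocytes keep from the precursor to the myelinating stage, was at 13.5, 12.8 and 13.1 FPKM in mouse 1, 11.2, 11.0 and 13.2 FPKM in mouse 2, and 10.3 and 8.49 FPKM in mouse 3. Mouse 3 lay below all libraries of the other mice, and the mean was 11.4 ± 1.91 FPKM (SD, n = 3). Nkx2-2 (chromosome 2, 147177546 to 147186402, minus strand), a homeodomain factor that times differentiation, ranged from 1.86 to 3.74 FPKM with a mean of 2.57 ± 0.480 FPKM (SD, n = 3). Its highest value came from library 2 of mouse 3, while the other library of that mouse, at 2.50 FPKM, lay within the range of mice 1 and 2. Olfactory ensheathing and Schwann cells also use Sox10. Of 8 of their markers 4 reached the minimum level, and Npy was highest (78.1 FPKM) and Pmp2 lowest (0.0205 FPKM).

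The 3 genes of the committed stage differed widely in level. Bcas1 (chromosome 2, 170346991 to 170427845), which marks newly forming oligodendrocytes and is also present in myelin, was at 63.5, 60.3 and 62.2 FPKM in mouse 1, 74.3, 67.5 and 65.9 FPKM in mouse 2, and 141 and 167 FPKM in mouse 3. The libraries of mouse 3 lay far above all others, and the mean was 95.0 ± 51.0 FPKM (SD, n = 3). Gpr17 (chromosome 18, 31942999 to 31949636), a receptor of the short committed stage, ranged from 7.33 to 8.99 FPKM with a mean of 8.35 ± 0.167 FPKM (SD, n = 3). Its mouse means of 8.47, 8.41 and 8.16 FPKM were the closest together of the 10 genes, with a coefficient of variation of 2.00% against a median of 12.3% over 13001 genes. The libraries of mouse 3, at 8.98 and 7.33 FPKM, spanned nearly the whole range of the gene. The closeness of the means thus does not show that single libraries were close. Enpp6 (chromosome 8, 46986925 to 47094895), a choline phosphodiesterase gene of newly formed oligodendrocytes, was at 3.13, 3.17 and 3.91 FPKM in mouse 1, 3.40, 3.26 and 3.66 FPKM in mouse 2, and 4.01 and 4.18 FPKM in mouse 3. Mouse 3 again lay above the other libraries, by a small margin, and the mean was 3.65 ± 0.389 FPKM (SD, n = 3).

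Myrf (chromosome 19, 10208271 to 10240748, minus strand) was at 8.93, 9.08 and 9.64 FPKM in mouse 1, 8.70, 9.86 and 9.80 FPKM in mouse 2, and 8.77 and 6.47 FPKM in mouse 3, a mean of 8.76 ± 0.997 FPKM (SD, n = 3). The first library of mouse 3 lay within the range of the other mice and the second below it. Myrf stood at 0.771 ± 0.0605 (SD, n = 3) of the level of Sox10, with mouse means of 0.701, 0.804 and 0.808.

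In this order of levels, 6 of 9 pairs of neighbours had mouse means that did not overlap. Bcas1 was 2.20 times as high as Olig1, and Olig1 3.77 times as high as Sox10, each in 8 of 8 libraries. The mouse means of Sox10 and Olig2, of Olig2 and Myrf, and of Myrf and Gpr17 overlapped, with ratios of 1.24, 1.05 and 1.05. Unpaired mouse means thus did not separate neighbours among these 4 genes. Within mice Sox10 was above Olig2 in 3 of 3 (ratios of 1.01 to 1.36). Olig2 was above Myrf in 2 of 3 mice, and Myrf above Gpr17 in 2 of 3. Within libraries Sox10 was above Olig2 in 7 of 8, Olig2 above Myrf in 4 of 8 and Myrf above Gpr17 in 6 of 8. Below them Gpr17 was 1.13 times as high as Pdgfra and Pdgfra 2.02 times as high as Enpp6, each in 8 of 8 libraries. Enpp6 was 1.42 times as high as Nkx2-2 in 8 of 8 libraries, and Nkx2-2 1.46 times as high as Cspg4 in 7 of 8. With 3 mice an exact paired permutation test cannot go below p = 0.25, so the order was not tested.

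For 7 of the 10 genes the table held 1 transcript, and for Bcas1, Pdgfra and Nkx2-2 it held 2. Nearly all of the Bcas1 level was assigned to NM_029815, the transcript with the exon printed above, which took at least 97.1% of the gene's FPKM in each library (median 99.0%). The transcript without it had a mean of 1.09 FPKM, and its deposited lower confidence bound was above 0 in 7 of 8 libraries. The difference of mouse 3 was carried by NM_029815, at 139 and 165 FPKM there against 59.9 to 73.9 FPKM elsewhere.

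For Pdgfra the split between transcripts was uneven over libraries. Both transcripts have 23 exons and a coding length of 3267 bases in GENCODE, and NM_011058 took at least 82.4% in each library (median 94.1%). NM_001083316 was at 0.799 to 1.37 FPKM in 4 libraries, those being library 3 of mouse 1, library 2 of mouse 2 and both of mouse 3, and under 0.001 FPKM in the other 4. In those 4 libraries NM_011058 was at 5.72 to 6.52 FPKM, against 7.21 to 7.88 FPKM in the others. The level assigned to NM_001083316 thus varied between libraries of the same mouse. This split is an estimate, and whether the presence of the transcript varied was not tested. For Nkx2-2, NM_010919 took at least 69.6% (median 92.0%), and NM_001077632 had a lower bound above 0 in 2 libraries, at 0.635 FPKM in library 2 of mouse 2 and 1.08 FPKM in library 2 of mouse 3. In the latter library this transcript accounted for much of the distance of Nkx2-2 from the other libraries, since NM_010919 was at 2.66 FPKM there and at 2.65 FPKM in library 3 of mouse 2.

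**Figure D2:**
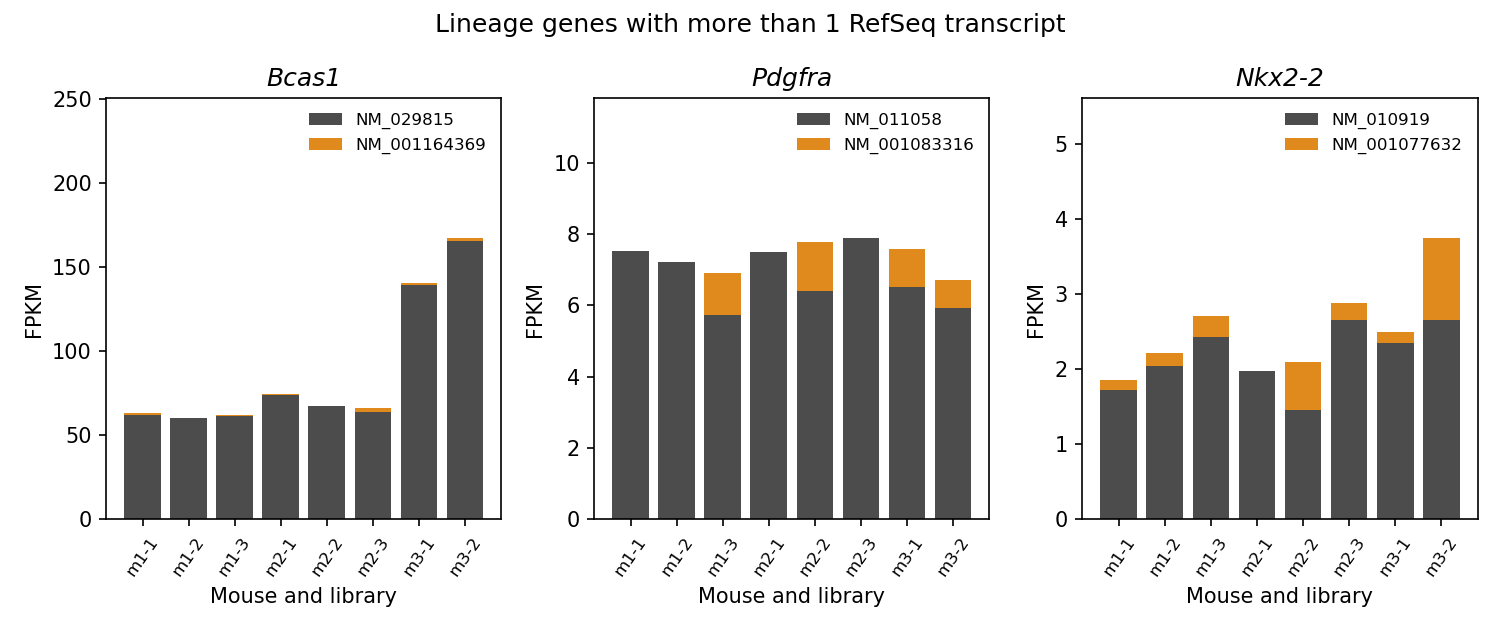
FPKM per library of the transcripts of Bcas1, Pdgfra and Nkx2-2, stacked, with mouse and library on the horizontal axis (m3-2 is mouse 3, library 2). NM_029815 makes up nearly all of Bcas1 in each library, whereas NM_001083316 of Pdgfra was assigned 0.799 to 1.37 FPKM in 4 of 8 libraries.

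The question of which of these genes varied between animals was addressed with the moderated F-test of limma, applied to log2(FPKM + 1) over all 13001 genes with Benjamini-Hochberg adjustment. Bcas1 and Sox10 differed between the mice, Bcas1 with mouse 3 highest and Sox10 with mouse 3 lowest, and the other 8 genes did not pass. These were 2 of 10 genes, against 25.5% of all genes tested. Of all genes tested 14.1% passed with mouse 3 highest and 11.3% passed with mouse 3 lowest, that is 1829 and 1464 genes. When each library was scaled to the same FPKM total (TPM) these counts became 790 and 4808, and the median over all genes of mouse 3 minus the mean of mice 1 and 2 moved from 0.020 to −0.23 on the log2 scale.

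Bcas1 was 2.34-fold as high in mouse 3 as in the mean of mice 1 and 2. On the log2(FPKM + 1) scale mouse 3 exceeded mouse 1 by 1.29 (SE 0.0994, limma adjusted p = 0.0022) and mouse 2 by 1.14 (SE 0.0994, limma adjusted p = 0.0037), whereas mouse 2 exceeded mouse 1 by 0.16 (SE 0.0889, limma adjusted p = 1). The difference thus lay between mouse 3 and both other mice. The F-test gave an adjusted p of 0.0039 in limma, and its range of mouse means was the 118th largest of 13001 genes. Bcas1 passed under all 16 other settings tried, with limma adjusted p from 0.0017 to 0.0260.

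Sox10 moved the other way. Its level in mouse 3 was 0.751 of the mean of mice 1 and 2, with a difference of −0.45 against mouse 1 (SE 0.108, limma adjusted p = 0.0176) and −0.31 against mouse 2 (SE 0.108, limma adjusted p = 0.059). The F-test gave a limma adjusted p of 0.0385, and mouse 3 was lower under each scaling. The call was not held by all libraries: the adjusted p became 0.0909, 0.0817 or 0.0933 without library 1, 2 or 3 of mouse 1, 0.0559 without library 2 of mouse 2 and 0.212 without library 2 of mouse 3. It was 0.0537 with no minimum level and 0.0528 with the highest transcript of each gene. The contrast with mouse 1 was lost without library 1 or 3 of mouse 1 (limma adjusted p = 0.0564 and 0.0546) and without library 2 of mouse 3 (0.114).

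Olig1 was 1.28-fold as high in mouse 3 as in the mean of mice 1 and 2. It did not pass the F-test (limma adjusted p = 0.108), and in the pairwise contrasts it was higher in mouse 3 than in mouse 2 by 0.44 (SE 0.143, limma adjusted p = 0.0457) and by 0.28 against mouse 1 (SE 0.143, limma adjusted p = 0.165). The call against mouse 2 was lost under 6 of the 8 other settings that kept all libraries, at limma adjusted p of 0.0555 to 0.0751 (pseudocount of 0.1, both lower minimum levels, length trend removed and highest transcript) and 0.362 (TPM scaling). It was also lost without each of the libraries of mouse 1 (0.0683 to 0.0720), library 2 of mouse 2 (0.0713) and either library of mouse 3 (0.113 and 0.181). Under TPM scaling its difference from the mean of the other mice shrank from 0.36 to 0.067, which was 0.29 above the shifted median of all genes. The remaining 7 genes had limma adjusted p values of 0.182 for Myrf, 0.223 for Enpp6, 0.295 for Nkx2-2, 0.303 for Cspg4, 0.493 for Olig2, 0.550 for Pdgfra and 0.901 for Gpr17. Without library 1 of mouse 3, Cspg4 and Myrf passed as well (limma adjusted p = 0.0102 and 0.0271), and Olig1 passed without library 1 or library 3 of mouse 2 (0.0489 and 0.0444) and with each library centred on its median (0.0490). Under TPM scaling Myrf and Pdgfra passed, both lower in mouse 3 (limma adjusted p = 0.0128 and 0.0419), as 5634 of all 13001 genes passed there. Their differences of mouse 3 were −0.54 and −0.32. Relative to the shifted median of all genes these were −0.31 for Myrf and −0.088 for Pdgfra.

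**Figure D3:**
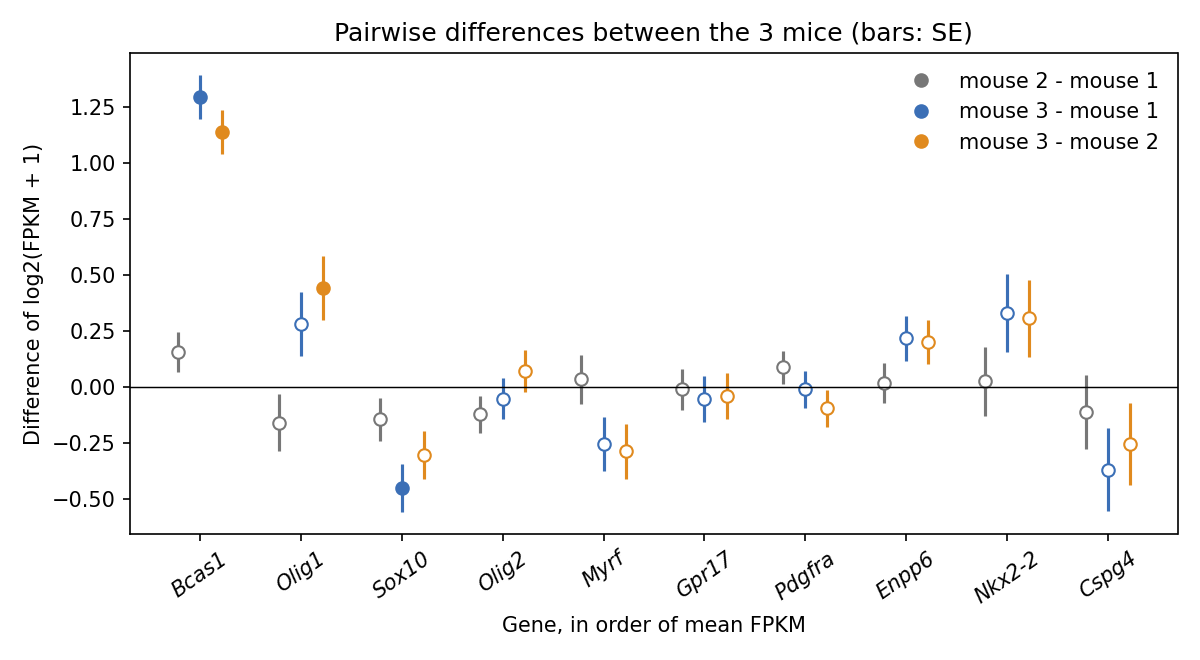
Differences of log2(FPKM + 1) between pairs of mice for the 10 genes, in order of mean FPKM, with bars of 1 SE from limma and filled points where the adjusted p of the contrast was under 0.05. Filled points are those of Bcas1 in both contrasts with mouse 3, Sox10 against mouse 1 and Olig1 against mouse 2, and all points of mouse 2 against mouse 1 are open.

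In the contrast of mouse 3 with mouse 1, Bcas1 and Sox10 passed, 2 of 10 genes against 29.7% of all genes. In the contrast of mouse 3 with mouse 2, Bcas1 and Olig1 passed, 2 of 10 against 32.1% of all genes, Olig1 with the losses given above. Between mice 1 and 2, 0 of 10 passed in limma (0 at an unadjusted p under 0.05) against 0.00769% of all genes, a single gene. Both contrasts with mouse 3 share its libraries, so they are not independent of each other. In plain levels the libraries of mouse 3 did not overlap the other 6 for 4 of 10 genes (Bcas1, Olig1 and Enpp6 above, Sox10 below), against 48.3% of all genes, 26.5% above and 21.7% below. The share of genes that differed was thus no higher among the 10 than in the table as a whole, and the median difference of mouse 3 was −0.020 over the 10 genes and 0.020 over all genes. The median range of the 3 mouse means was 0.31 over the 10 and 0.28 over all genes on the log2 scale.

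Because the libraries of mouse 3 moved with transcript length, each gene was set beside genes of like length, in 10 length bins of the 13001 genes. The median difference of mouse 3 ran from 0.56 in the shortest bin (median 781 bases) to −0.26 in the longest (median 7596.5 bases). Bcas1, at 3090 bases, differed by 1.21 where its bin had a median of −0.025, and Sox10, at 2713 bases, by −0.38 against 0.015. Olig1 (0.36 against 0.072), Nkx2-2 (0.32 against 0.072) and Enpp6 (0.21 against −0.025) were above the median of their bins. Cspg4, the longest of the 10 at 8050 bases, differed by −0.31 against −0.26. Myrf was below its bin (−0.27 against −0.15), Olig2 close to it (0.0084 against 0.015), and Gpr17 (−0.049 against −0.15) and Pdgfra (−0.055 against −0.26) above it. With the trend of each library with length removed, Bcas1 (limma adjusted p = 0.0017) and Sox10 (limma adjusted p = 0.0380) still passed. The differences of Gpr17 and Pdgfra then turned to 0.095 and 0.15 and that of Olig2 to −0.036, while that of Enpp6 turned to −0.029 under TPM scaling, and none of these 4 passed in the stated setting.

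**Figure D4:**
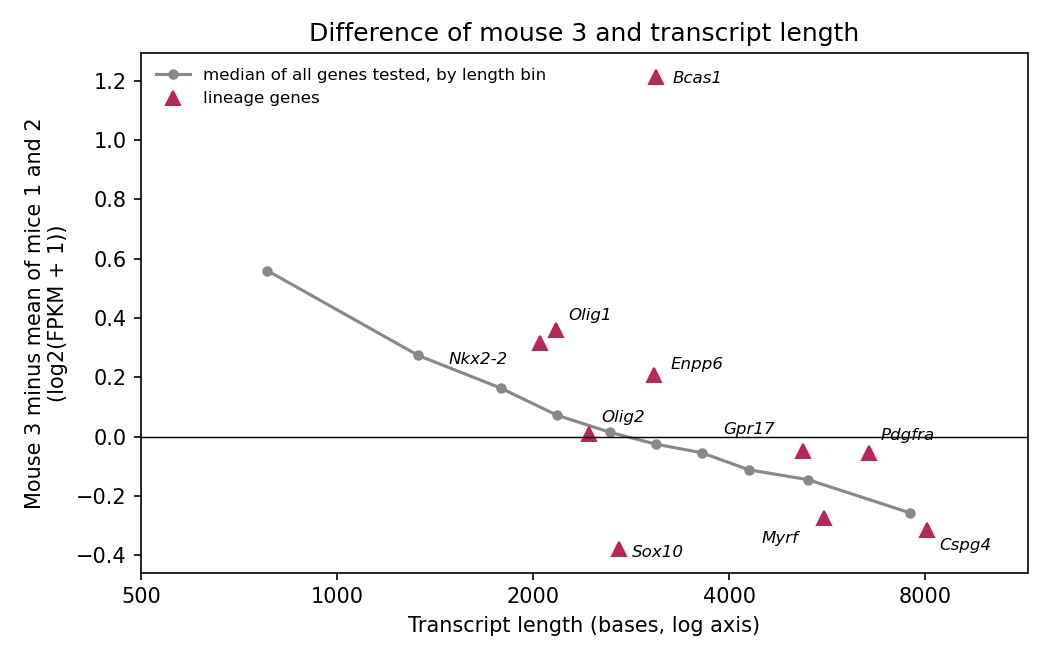
Difference of mouse 3 from the mean of mice 1 and 2 in log2(FPKM + 1) against transcript length (bases, log axis), with triangles for the 10 genes and a grey line for the median of all genes in each of 10 length bins. The grey line falls from 0.56 to −0.26, Bcas1 lies far above it at 1.21 and Sox10 below it at −0.38.

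Lists of other genes of the lineage gave different counts. Of 16 further precursor markers, summed at 187 ± 7.14 FPKM (SD, n = 3), 15 were tested and 2 passed, both lowest in mouse 3: Pcdh15, a protocadherin gene (1.74, 1.73 and 1.07 FPKM in mice 1, 2 and 3, limma adjusted p = 0.0227, and 0.385 with the length trend removed), and Susd5 (2.05, 1.77 and 1.34 FPKM, limma adjusted p = 0.0231). Cspg5 was highest (44.6 FPKM) and Sapcd2 lowest (0.281 FPKM). The list's median difference of mouse 3 was 0.076, and −0.10 with the length trend removed, where 3 genes passed as higher and 1 as lower. Of 16 markers of committed and newly formed oligodendrocytes, summed at 250 ± 3.60 FPKM (SD, n = 3), 15 were tested and 2 passed. Sirt2, a deacetylase gene and the highest of the list, was higher in mouse 3 (63.7, 59.97 and 74.6 FPKM, limma adjusted p = 0.0488, with the difference turning from 0.27 to −0.027 under TPM scaling), and Tcf7l2, a transcription factor gene of newly formed oligodendrocytes, was lower (11.3, 10.8 and 8.39 FPKM, limma adjusted p = 0.0207). Kif19a was lowest (0.941 FPKM), and the list's median was −0.12. Without library 2 of mouse 3, 0 genes of either list passed in limma, with 3 precursor and 4 committed-stage markers at an unadjusted p under 0.05. Under TPM scaling 5 precursor and 8 committed-stage markers passed, all lowest in mouse 3, with medians of −0.21 and −0.40 where the median of all genes was −0.23. Over all 13001 genes 5634 passed there, 4808 of them lowest in mouse 3.

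Genes of mature myelin were the lineage list with the most genes higher in mouse 3. Of 18 myelin genes 9 passed, all 9 highest in mouse 3, and their median difference was 0.35 against 0.020 over all genes. Mbp, the major myelin basic protein gene, was at 1288, 1322 and 3166 FPKM in mice 1, 2 and 3 (log2 difference of mouse 3 from mice 1 and 2 of 1.27, limma adjusted p = 0.0039), and Mobp, a gene of another basic myelin protein, at 91.4, 98.9 and 223 FPKM (log2 difference 1.22, limma adjusted p = 0.0050). These differences were of the size of that of Bcas1 (1.21). The count of myelin genes passed was 4 under TPM scaling and 2 without library 2 of mouse 3, all of them highest in mouse 3 in each case. The summed level of the 18 genes was 2855 and 2860 FPKM in mice 1 and 2 and 5300 FPKM in mouse 3. Mbp alone made up 1288, 1322 and 3166 FPKM of these sums, so the rise of the sum lay largely in this gene. Among the 9 genes that did not pass, Cnp and Gpr37 differed by only 0.053 and 0.051 on the log2 scale.

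Markers of other brain cells moved with mouse 3 too. All 8 astrocyte markers passed as higher, with sums between 929 and 1010 FPKM in the libraries of mice 1 and 2 and 1540 to 1657 FPKM in mouse 3, and of 8 neuron markers 4 passed, all lower, with sums of 1962 to 2119 FPKM and 1678 to 1798 FPKM. Of 8 microglia markers 4 and of 8 endothelial markers 2 passed, all 6 higher in mouse 3. Without library 2 of mouse 3 these counts fell to 3 astrocyte, 1 neuron, 0 microglia and 0 endothelial markers in limma (8, 6, 3 and 3 at an unadjusted p under 0.05), and under TPM scaling they were 3, 7, 2 and 2. The part of these cell types, of library totals and of transcript length in the differences of Bcas1, Sox10 and Olig1 was not tested.

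Ratios within a library do not depend on its scale. The sum of the committed-stage genes Gpr17, Bcas1 and Enpp6 was 12.1 ± 6.68 times that of Pdgfra and Cspg4 (SD, n = 3), with mouse means of 7.98, 8.53 and 19.8, and the libraries of mouse 3 (16.0 and 23.6) lay above the other 6 (7.76 to 9.36). With Bcas1 left out, a choice made after its values were seen, the ratio was 1.32 ± 0.103 (SD, n = 3), with mouse means of 1.28, 1.24 and 1.44. The high ratio of mouse 3 therefore lay mostly in Bcas1, and the ratio of Bcas1 to Gpr17 was 7.32, 8.28 and 19.2 in mice 1, 2 and 3. With the length trend removed the ratio with Bcas1 was 8.15, 9.03 and 17.3 and that without it 1.298, 1.29 and 1.33 in mice 1, 2 and 3. The 4 transcription factor genes summed to 7.35 ± 1.12 times the precursor-surface sum (SD, n = 3). Per 1000 FPKM of the 18 myelin genes, Pdgfra and Cspg4 summed to 3.24, 3.33 and 1.65 FPKM in mice 1, 2 and 3. Both libraries of mouse 3 (2.01 and 1.299) lay below the other 6 (3.14 to 3.44). With the length trend removed mouse 3 (1.94) also lay below mice 1 and 2 (3.14 and 3.07). Mbp, at 1288, 1322 and 3166 FPKM in mice 1, 2 and 3, was the largest part of the myelin sum, and no ratio without it was taken.

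**Figure D5:**
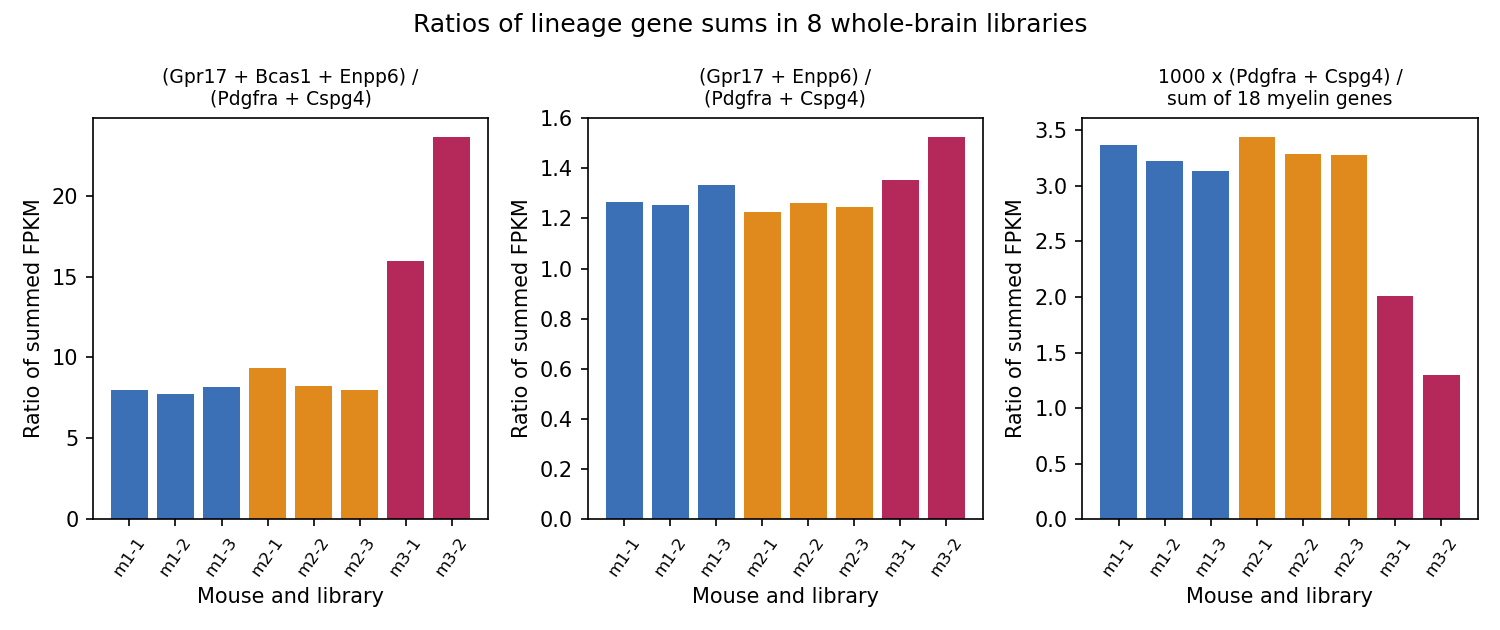
Ratios of summed FPKM in each of the 8 libraries, with bars coloured by mouse (m1, m2 and m3) and axes from 0. The ratio of committed-stage to precursor-surface genes is 16.0 and 23.6 in mouse 3 with Bcas1 and 1.35 and 1.53 without it, and the precursor sum per 1000 FPKM of myelin genes is lowest in mouse 3.

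The wider set of regulators and signalling partners was read from the same fit. Without library 2 of mouse 3 the limma count was 0 in both lists, with 2 regulators and 3 partners at an unadjusted p under 0.05. Under TPM scaling 8 of 17 regulators passed, all lowest in mouse 3, and 7 of 20 partners, 6 of them lowest. Over all 13001 genes 5634 passed there, 4808 of them lowest in mouse 3. The medians of these lists were −0.29 and −0.18, where the median of all genes was −0.23. Of 20 lineage transcription regulators 19 were in the table and 17 were tested, and 2 passed: Hes5, a Notch target gene that holds back differentiation, was higher in mouse 3 (3.80, 3.63 and 6.81 FPKM, limma adjusted p = 0.0373), and Klf9 lower (53.3, 51.9 and 42.3 FPKM, limma adjusted p = 0.0358). With the length trend removed neither passed (limma adjusted p = 0.119 and 0.0835). Id2 was highest (104 FPKM), Olig3, the third Olig gene, was lowest (0.0218 FPKM), and the list's median difference was −0.097. Of 24 ligands, receptors and partners 20 were tested and 3 passed. Pdgfd, a ligand of the PDGF family, was higher in mouse 3 (2.11, 3.03 and 4.91 FPKM, limma adjusted p = 0.0146), while Grip1, which encodes a scaffold protein that binds NG2, was lower (3.66, 3.95 and 2.39 FPKM, limma adjusted p = 0.0127), as was Enpp2 (172, 156 and 121 FPKM, limma adjusted p = 0.0208). The main ligand of Pdgfra, Pdgfa, was at 20.2, 18.1 and 15.7 FPKM in mice 1, 2 and 3 (limma adjusted p = 0.0955). Enpp2, a relative of Enpp6, was the highest of this list, Myrfl, a relative of Myrf, was the lowest (0.0281 FPKM), and the list's median was 0.063.

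For 9 of the 10 genes, Cspg4 left out, the gene outside the 10 with the most similar profile over the 8 libraries was the one with the smallest root mean square difference of centred log2(FPKM + 1) values. These were Zfp236 for Pdgfra (0.0241), Rnf187 for Olig1 (0.0397), Ttc28 for Olig2 (0.0351) and Rbm14 for Sox10 (0.0207). They were Tgds for Nkx2-2 (0.0568), Tgfbr3 for Gpr17 (0.0277), Rpl5 for Bcas1 (0.0922), Sox8 for Enpp6 (0.0208) and Prr14l for Myrf (0.0107). Bcas1 had the largest of these differences, and its own profile also varied most. The root mean square of its centred values was 0.536, against 0.0665 to 0.225 for the other genes compared. Its neighbour Rpl5, a ribosomal protein gene, was at 87.5 to 97.4 FPKM in mice 1 and 2 and at 176 and 250 FPKM in mouse 3. Sox8, the nearest gene to Enpp6 and a relative of Sox10, was the only one of these that the lineage lists held, at 11.2 to 13.3 FPKM in mice 1 and 2 and 13.5 and 14.5 FPKM in mouse 3. Neither Enpp6 nor Sox8 passed the F-test (limma adjusted p = 0.223 and 0.228). The median difference of Enpp6 from all genes was 0.198, and whether its match with Sox8 goes beyond a search over all genes was not tested.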

How the data were processed

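RNA from whole brains of 3 mice was made into 8 libraries, with an mRNA library kit, from RNA whose integrity score passed the study's limit. The authors deposited FPKM values for each of 34535 RefSeq transcripts, each with a status and confidence bounds. The deposited coverage is a signal, the read depth per base, not scaled for library size. TopHat and Cufflinks and the build mm10 are named in the submitters' processing notes, whereas versions, strand setting and read length are not given in the sources used here. Because Cufflinks shares reads out among transcripts, a gene's sum is firmer than its parts. The status was FAIL for 8 values, 0 of them in the 10 genes.

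For each gene the FPKM of its transcripts were added up, and means were taken per mouse and then over 3 mice. Differences between mice were tested with limma 3.58.1 in R 4.3.3 on log2(FPKM + 1) for 13001 genes (mean of 1 FPKM or more), with a threshold of 0.05 for the adjusted p, and the pseudocount of 1 understates fold changes of low genes. For TPM scaling each library was scaled to the mean FPKM total, and the length trend was removed by a lowess curve on log length. Same-numbered libraries of different mice had correlations of deviations between 0.0028 and 0.107, and differently numbered ones between −0.135 and 0.065. As the former were not all over 0.1, the libraries were not paired in the stated setting. This does not exclude a pairing, and a fit with a block on the library number is given below. Sequences were read from the GENCODE transcript sequences, and their positions on GRCm38 from the GENCODE annotation. The limma code was tested on simulated data.

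The 10 genes and the lists (precursor, committed, myelin, regulators, ligands and partners, fibroblast, pericyte, olfactory ensheathing and Schwann cell, neuron, astrocyte, microglia, endothelial, choroid plexus and tissue outside the brain) were chosen with earlier results of these data known. Of each list the highest and lowest gene and up to 2 genes that passed with the largest range were named. Some genes that this rule names are not reported here. Pdgfa and Enpp2 were named for their relation to Pdgfra and Enpp6. The limma p-values measure only the spread between libraries of a mouse, which may be technical.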

Additional observations from a re-analysis of the deposited data

Results flagged for a closer look

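Over the 8 libraries of the single condition, 3 of 18 values (10 gene levels and 8 ratios) had a library whose gap to its nearest neighbour, as a share of the whole range, was above Dixon's critical value. Chance flags about 1 in 20 such groups where their values are independent. The libraries here are nested in 3 mice and the ratios share genes with the levels, so 3 of 18 cannot be set against that rate. All 3 came from library 2 of mouse 3. Cspg4 was at 0.821 FPKM there, with the next library at 1.63 FPKM (gap 0.589 of the range), and the deposited bounds of 0.649 and 0.993 FPKM lay below those of each other library. Myrf was at 6.47 FPKM, with the next at 8.70 FPKM (gap 0.657). The ratio of the committed-stage sum without Bcas1 to the precursor-surface sum was 1.53, with the next at 1.35 (gap 0.576). This ratio holds Cspg4 and was chosen after the values of Bcas1 were seen. The same library had the strongest relation to transcript length (Spearman's rho across genes of −0.574) and the highest FPKM total (409889). Their part in these values was not tested.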

How the results depend on the processing

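Over all genes the F-test passed 3310 genes, 5634 under TPM scaling, and 126 to 3873 when each library was left out in turn, where 126 was without library 2 of mouse 3 and 1671 to 1909 were without a library of mouse 1. Of the 10 lineage genes 2 passed, against 4 under TPM scaling (Bcas1, Sox10, Myrf and Pdgfra), 1 with no minimum level, 1 with the highest transcript, and 1 to 4 with a library left out. Fitted with a replicate block on the library number, 2995 genes and 1 of the 10 passed, with Sox10 at a limma adjusted p of 0.0658, while Nkx2-2 passed in both contrasts with mouse 3. The pairwise counts were 3860 for mouse 3 against mouse 1 (6299 under TPM scaling, 1014 to 4975 with a library left out), 4177 for mouse 3 against mouse 2 (964 to 4961) and 1 for mouse 2 against mouse 1 (1 to 3). The cause of these moves was not tested. The order of the 10 levels was the same under all 12 settings tried. No difference that had passed changed sign. For Cspg4, Gpr17, Olig2, Pdgfra and Enpp6, which had not passed the F-test, the difference of mouse 3 changed sign under some settings. That of Cspg4 turned from −0.31 to 0.052 without library 2 of mouse 3. Of 120 levels 117 moved by less than the SD between mice. The moved ones were Pdgfra by its highest transcript alone (6.77 FPKM) and Gpr17 without either library of mouse 3 (8.07 and 8.62 FPKM). Of 80 ratios 1 moved, the committed-stage ratio without Bcas1, to 1.43 by the highest transcript. The number of mice limits each SD and the unknown number of reads the precision of low levels.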

Other observations

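Of the cell-type lists not described above, the choroid plexus markers summed to between 322 and 566 FPKM over the 8 libraries, with Ttr highest (472 FPKM) and Kcne2 lowest (3.34 FPKM), and 1 of 5 passed, Kl, lowest in mouse 3 (6.27, 5.78 and 3.42 FPKM in mice 1, 2 and 3, limma adjusted p = 0.0206). Among the olfactory ensheathing and Schwann cell markers 2 of 4 tested passed. Fabp7, which astrocytes also express, was at 57.6, 54.3 and 113 FPKM (limma adjusted p = 0.0161, and 0.180 with the length trend removed), and Ngfr, a neurotrophin receptor gene, at 1.35, 1.20 and 0.660 FPKM (limma adjusted p = 0.0180). Of the pericyte and smooth muscle markers 1 of 11 passed, Rgs5, at 23.2, 23.7 and 41.6 FPKM (limma adjusted p = 0.0070), whereas 0 of 10 fibroblast markers passed in limma, 3 of them at an unadjusted p under 0.05.

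Among the markers of other brain cells, Gfap was at 52.8, 54.4 and 111 FPKM (limma adjusted p = 0.0051) and S100b at 112, 113 and 229 FPKM (limma adjusted p = 0.0070) in mice 1, 2 and 3, while Aldh1l1 was the lowest astrocyte marker (19.8 FPKM). Of the neuron markers, Syt1 was at 273, 269 and 164 FPKM (limma adjusted p = 0.0063) and Gad1 at 134, 125 and 84.4 FPKM (limma adjusted p = 0.0144), and Slc17a6 was lowest (22.0 FPKM). The microglia genes Aif1 (limma adjusted p = 0.0304, and 0.139 with the length trend removed) and C1qb (limma adjusted p = 0.010) were highest in mouse 3, and Siglech was the lowest of that list (4.45 FPKM). The endothelial genes Itm2a (limma adjusted p = 0.0067) and Ly6c1 (limma adjusted p = 0.0206, and 0.0938 with the length trend removed) were also highest in mouse 3, and Tek was lowest of its list (3.46 FPKM). Of the genes named in both paragraphs as passing, Rgs5, Gfap and Syt1 still passed without library 2 of mouse 3 (limma adjusted p = 0.0479, 0.0421 and 0.0470), whereas Kl, Fabp7, Ngfr, S100b, Gad1, Aif1, C1qb, Itm2a and Ly6c1 did not (0.0544 to 0.231).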
